A study of Mus musculus with 25 samples.

Results

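Interferon gamma (Ifng), its CXC chemokines Cxcl9, Cxcl10 and Cxcl11 and their shared receptor Cxcr3 were followed through colitis and recovery in mouse colon. These 5 genes were chosen by name as a ligand, the chemokines it induces and the receptor of those chemokines, and they stand among 25464 genes or unnamed probes that were tested. All 5 had a probe well above background on enough arrays to be tested. Total RNA of whole colon from female C57BL/6J mice aged 8 weeks was hybridised to 25 one-colour Agilent arrays, with 1 mouse on each array. Mice were wild type (WT) or labelled Card9-/-, which lacks the adaptor that links fungal C-type lectin receptors to NF-κB. Colitis was induced with 2% (w/v) dextran sulfate sodium (DSS), a polymer in the drinking water that damages the colon epithelium. It was given for 7 days, and 5 days of plain water followed. The groups are WT before DSS (day 0, 3 arrays), at day 7 (5 arrays) and at day 12 (5 arrays), and the same days in mice labelled Card9-/- (3, 4 and 5 arrays). Each animal drank DSS except those of day 0. Whole colon mixes epithelium, immune cells, muscle and vessels, so that fewer cells of a type and less RNA per cell cannot be told apart in any value below.

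Interferon gamma is the cytokine that natural killer (NK) cells and type 1 T cells release, mainly under IL-12 and IL-18 from myeloid cells. It binds the receptor pair IFNGR1 and IFNGR2, which signals through the kinases JAK1 and JAK2 to the GAS element of target promoters and induces IRF1. CXCL9, CXCL10 and CXCL11 are secreted by macrophages, epithelial and endothelial cells under interferon, and they attract cells that carry CXCR3, chiefly activated T cells and NK cells. CXCL9 is induced mostly by interferon gamma, whereas CXCL10 also responds to type I interferon, through the ISRE element, and to NF-κB.

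The 3 chemokine genes are neighbours on mouse chromosome 5, in the order Cxcl9, Cxcl10, Cxcl11, in the GRCm38.p6 gene table of RefSeq, where Cxcl11 is listed as a transcribed pseudogene. A working CXCL11 protein, as in the background above, is therefore not assumed for these mice. Ifng lies on chromosome 10 and Cxcr3 on chromosome X. The 250 bases before the start of Ifng, Cxcl9 and Cxcl10, whose levels moved together here, are shown 5′ to 3′ on the strand of the gene, from the RefSeq promoters of GRCm38.p6. Capitals mark matches to the GAS motif (TTCNNNGAA), to a core of the ISRE (GAAA, any 2 bases, GAAA) and to a core of the κB site (GGGA, any 2 bases, TTCC), searched on both strands. No match overlapped another. They are Ifng at chr10:118440796-118441045 (plus strand), Cxcl9 at chr5:92328080-92328329 (minus strand) and Cxcl10 at chr5:92348890-92349139 (minus strand).
Ifng promoter: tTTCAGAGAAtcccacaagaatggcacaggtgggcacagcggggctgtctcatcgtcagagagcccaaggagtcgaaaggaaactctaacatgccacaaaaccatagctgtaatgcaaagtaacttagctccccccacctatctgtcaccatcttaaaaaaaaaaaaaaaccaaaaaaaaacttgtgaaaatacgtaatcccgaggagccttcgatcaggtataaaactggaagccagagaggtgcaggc
Cxcl9 promoter: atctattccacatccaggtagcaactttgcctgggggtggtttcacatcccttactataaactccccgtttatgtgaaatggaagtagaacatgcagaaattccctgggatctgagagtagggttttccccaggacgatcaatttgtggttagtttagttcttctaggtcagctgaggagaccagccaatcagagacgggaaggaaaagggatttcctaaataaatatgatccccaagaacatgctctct
Cxcl10 promoter: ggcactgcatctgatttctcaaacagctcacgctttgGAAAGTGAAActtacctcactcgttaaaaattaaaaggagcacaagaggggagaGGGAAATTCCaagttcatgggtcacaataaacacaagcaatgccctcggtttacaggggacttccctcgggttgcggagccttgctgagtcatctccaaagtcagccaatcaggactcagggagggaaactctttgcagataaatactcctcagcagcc

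The Cxcl10 window held 1 ISRE match, from -213 to -204 relative to the start, and 1 κB match, from -159 to -150. The Ifng window held 1 GAS match, from -249 to -241. The Cxcl9 window and that of Cxcr3 held no match to any of the 3 motifs. Of 32851 promoters of this length from 27025 genes, 7.02% held the GAS motif, 2.98% the ISRE motif and 1.21% the κB motif. A match describes letters in the window and is not evidence of a bound site. The lack of a match is not evidence that a promoter has no such site, as only these letters were searched.

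Cxcl11 needs a caution before its values. A 30-base stretch of each of its 2 probes is shown because the letters bear on what these probes measure. Capitals mark bases in 15-base windows that also occur in at least 5 RefSeq promoters.
Cxcl11 tested probe, bases 14 to 43: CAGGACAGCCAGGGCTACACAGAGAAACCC
Cxcl11 other probe, bases 14 to 43: ttcagcacttgaaAGGCAGAGGCAGGAGGA

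All 30 bases shown of the tested probe, at chr5:92788567-92788626 (mm9), lay in such windows, and a window of it occurred in up to 26 promoters. Over its whole length the tested probe shared a 15-base window with 65 of the 32851 promoters (0.198%) and with 22 other probes of the array. Of all probes, 0.848% shared a window with at least 22 other probes. The other Cxcl11 probe shared one with 18 promoters and 4 probes. Signal of the Cxcl11 probes is therefore given as probe signal, and whether it reports Cxcl11 RNA was not tested.

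The 75th percentile of the processed signal lay between 196.1 and 661.3 over the arrays, and 46.53 to 67.14% of the probes were well above background. The 12 colon epithelium markers were well above background on every array. The Card9 probe was brighter in arrays labelled Card9-/- (log2 level -1.52 to -0.48) than in WT arrays (-6.84 to -2.93), which is opposite to loss of a transcript. The direction of each difference between genotypes below therefore rests on the labels. Pancreatic acinar genes stood far above the rest in 4 arrays, namely replicates 2 and 3 labelled Card9-/- at day 7, replicate 1 labelled Card9-/- at day 12 and WT day 12 replicate 5. Hox genes of proximal colon were highest in 3 arrays, namely replicates 1 and 2 labelled Card9-/- at day 0 and WT day 7 replicate 1 (list means of 2.18, 2.01 and 2.69 above the WT day 0 mean). WT day 12 replicate 4 came next at 1.88, and the other arrays were at 0.99 or lower. The list mean of distal colon Hox genes was -0.79 and -0.63 in those replicates labelled Card9-/- at day 0. WT day 7 replicate 1 had the highest distal mean of all arrays (2.04), so these 3 arrays are alike in the proximal list only. Counts in arrays labelled Card9-/- that lose calls without the 4 acinar or the 3 Hox arrays are given without them too. Leaving out WT day 12 replicate 4 as well, a setting added after the data were seen, took the members called at day 12 against day 0 in WT from the 2 without the 3 Hox arrays to 0 and left each other count of members as it was without the 3. A level is log2 of the processed signal relative to the 75th percentile of its array, and a difference between group means is on the same scale, given ± its standard error (SE) from limma. Genes with a Benjamini-Hochberg adjusted p under 0.05 over all genes of a comparison are termed called.

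**Figure D1:**
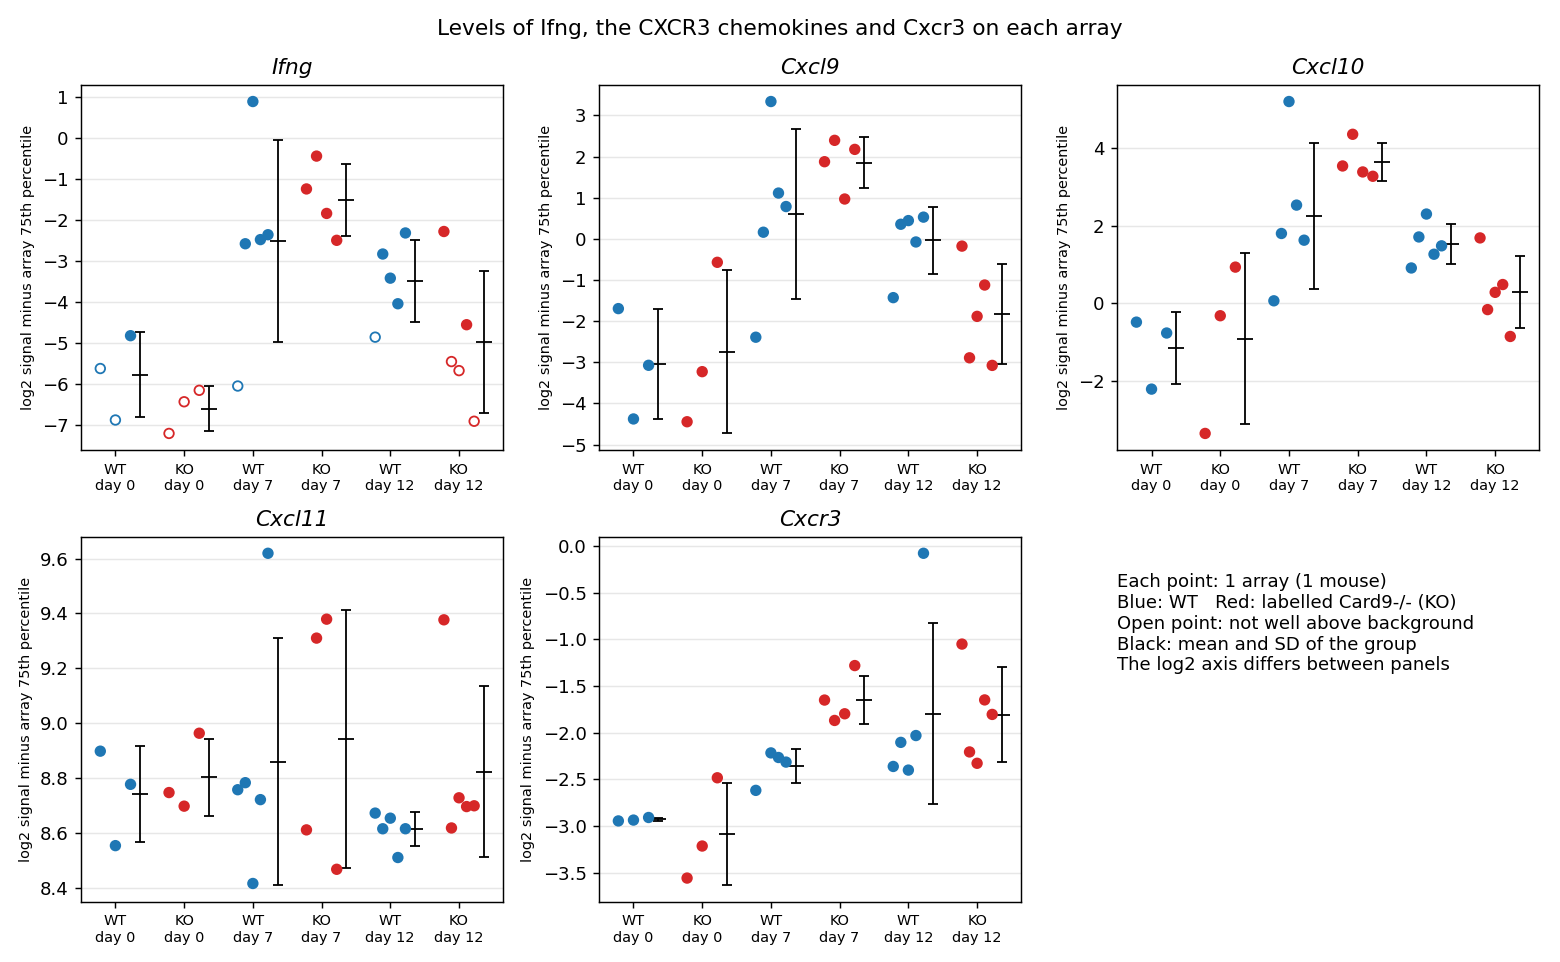
Log2 level of Ifng, Cxcl9, Cxcl10, Cxcl11 and Cxcr3 on each array, relative to the array's 75th percentile, by genotype label and day. Each point is 1 mouse, open points are not well above background, black bars are the group mean and SD, and the vertical axes differ. The group means of Ifng, Cxcl9 and Cxcl10 are highest at day 7 in each genotype. For these genes WT day 7 replicate 1 lies below every WT day 12 array. Cxcl11 stays between 8.41 and 9.62.

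Ifng, the cytokine itself, was near background before DSS and was measured in most inflamed colons. At day 0 its level was -5.61, -6.87 and -4.81 in WT and -7.19, -6.42 and -6.14 in arrays labelled Card9-/-. Of the day 0 arrays 1 of 3 WT and none of the 3 labelled Card9-/- had the probe well above background, so these low values have little order among themselves. At day 7 it was -6.04, -2.57, 0.90, -2.47 and -2.35 in WT, and -1.23, -0.43, -1.83 and -2.49 in arrays labelled Card9-/-. Every day 7 array labelled Card9-/- lay above every day 0 array of that label, while WT day 7 replicate 1 stayed within the day 0 range and replicate 3 was the highest of the study. At day 12 the WT arrays were at -4.85, -2.82, -3.41, -4.03 and -2.31. The arrays labelled Card9-/- were at -2.27, -5.44, -5.66, -4.54 and -6.90, and only 2 of these 5 were well above background. The day 12 genotypes overlapped, since WT replicate 1 lay below replicates 1 and 4 labelled Card9-/-.

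By group mean, Ifng ran from Card9-/- day 7 (-1.50 ± 0.87, SD, n = 4) through WT day 7 (-2.51 ± 2.45, n = 5), WT day 12 (-3.48 ± 1.00, n = 5), Card9-/- day 12 (-4.96 ± 1.72, n = 5) and WT day 0 (-5.76 ± 1.04, n = 3) to Card9-/- day 0 (-6.59 ± 0.54, n = 3). No neighbouring means in this order lay further apart than the larger of their SDs. In arrays labelled Card9-/- the rise from day 0 to day 7 was 5.09 ± 1.13 (SE), at least 8.86-fold, with adjusted p = 0.0031. This bound compares day 7 with the dimmest signal that still counted as measured on the day 0 arrays. In WT, where 1 of the 3 day 0 arrays measured it, the same difference was 3.26 ± 1.08 and was not called (adjusted p = 0.0949). Without WT day 7 replicate 1 it was 4.14 and called (adjusted p = 0.0106). From day 7 to day 12 Ifng fell by 3.47 ± 0.99 (adjusted p = 0.036) in arrays labelled Card9-/-, with 2 of 5 day 12 arrays above background, against -0.98 ± 0.94 (adjusted p = 0.69) in WT. With normexp background correction the fall was -1.52 (adjusted p = 0.0666), and the call was lost in 7 of 13 settings that do not leave out a single array, normexp included (adjusted p from 0.015 to 0.122). The call was lost without any single array labelled Card9-/- of day 7, or without replicate 2, 3, 4 or 5 of day 12 (adjusted p from 0.0505 to 0.107).

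Cxcl9, the chemokine most tied to interferon gamma, rose in both genotypes at day 7. At day 0 its level was -1.69, -4.38 and -3.07 in WT and -4.44, -3.23 and -0.57 in arrays labelled Card9-/-. At day 7 it was -2.39, 0.16, 3.34, 1.11 and 0.79 in WT and 1.88, 2.40, 0.97 and 2.18 in arrays labelled Card9-/-. WT day 7 replicate 1, the array without Ifng above background, also had the lowest Cxcl9 of its group, and WT day 7 replicate 3 had the highest Cxcl9 of the study, as it had the highest Ifng. At day 12 Cxcl9 was -1.43, 0.36, 0.45, -0.07 and 0.53 in WT. It was -0.18, -2.89, -1.88, -1.12 and -3.07 in arrays labelled Card9-/-. Of the latter, replicates 1 and 4 lay above the lowest WT array, and replicate 1, which has the acinar signal, was the highest.

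The order of the Cxcl9 group means was Card9-/- day 7 (1.85 ± 0.63, SD, n = 4), WT day 7 (0.60 ± 2.06, n = 5), WT day 12 (-0.03 ± 0.81, n = 5), Card9-/- day 12 (-1.83 ± 1.22, n = 5), Card9-/- day 0 (-2.75 ± 1.98, n = 3) and WT day 0 (-3.05 ± 1.34, n = 3). Of these neighbours, the day 12 genotypes lay further apart than either SD, and the others did not. The rise to day 7 was 4.60 ± 1.04 (24.3-fold, adjusted p = 0.00354) in arrays labelled Card9-/- and 3.65 ± 0.99 (12.6-fold, adjusted p = 0.0397) in WT. By day 12 Cxcl9 fell by 3.68 ± 0.91 (12.8-fold, adjusted p = 0.0179) in arrays labelled Card9-/-, and the ranges of the days did not overlap. In WT the difference was -0.64 ± 0.86 (adjusted p = 0.798). A further Cxcl9 probe gave 3.96 for the rise (adjusted p = 0.00671) and -3.25 for the fall (adjusted p = 0.0264) in arrays labelled Card9-/-, and 3.15 in WT (adjusted p = 0.0616).

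Cxcl10, which attracts the same cells and is also induced by type I interferon, followed Cxcl9. At day 0 its level was -0.48, -2.21 and -0.76 in WT and -3.35, -0.32 and 0.93 in arrays labelled Card9-/-. At day 7 it was 0.06, 1.80, 5.19, 2.53 and 1.62 in WT and 3.53, 4.35, 3.38 and 3.27 in arrays labelled Card9-/-. Here the day 7 and day 0 arrays did not overlap in either genotype, and WT replicates 1 and 3 again marked the ends of their group. At day 12 Cxcl10 was 0.91, 1.71, 2.30, 1.26 and 1.48 in WT. It was 1.68, -0.16, 0.28, 0.48 and -0.85 in arrays labelled Card9-/-. Replicates 2 to 5 labelled Card9-/- lay below every WT array, and replicate 1 lay among them.

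For Cxcl10 the order of the means was Card9-/- day 7 (3.63 ± 0.49, SD, n = 4), WT day 7 (2.24 ± 1.88, n = 5), WT day 12 (1.53 ± 0.52, n = 5), Card9-/- day 12 (0.29 ± 0.93, n = 5), Card9-/- day 0 (-0.91 ± 2.20, n = 3) and WT day 0 (-1.15 ± 0.92, n = 3). As with Cxcl9, the day 12 genotypes were the neighbours that lay further apart than either SD. Cxcl10 rose by 4.54 ± 0.93 (23.3-fold, adjusted p = 0.00172) in arrays labelled Card9-/- and by 3.39 ± 0.89 (10.5-fold, adjusted p = 0.0335) in WT. It fell by 3.34 ± 0.82 (10.2-fold, adjusted p = 0.017) from day 7 to day 12 in arrays labelled Card9-/-, again without overlap, against -0.71 ± 0.77 (adjusted p = 0.735) in WT. The dimmer Cxcl10 probe gave 3.28 and -3.14 in arrays labelled Card9-/- (adjusted p = 0.00141 and 0.00407). In WT that probe, well above background on 1 of 5 day 7 arrays, gave 1.42 (adjusted p = 0.245).

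Cxcr3, the receptor that T cells and NK cells carry, showed smaller differences from day 0 to day 7 than Cxcl9 and Cxcl10. At day 0 its level was -2.95, -2.94 and -2.91 in WT and -3.56, -3.21 and -2.48 in arrays labelled Card9-/-. At day 7 it was -2.62, -2.22, -2.27 and -2.32 in WT replicates 1, 3, 4 and 5. The spot of replicate 2 carried an outlier flag, and the fit left that value out. It was -1.65, -1.87, -1.80 and -1.28 in arrays labelled Card9-/- at day 7. These 4 arrays lay above every measured WT day 7 array, which holds for 1 of the 5 genes and for 0.911% of all genes, and above every day 0 array. At day 12 Cxcr3 was -2.36, -2.10, -2.40, -2.03 and -0.08 in WT and -1.05, -2.21, -2.33, -1.65 and -1.81 in arrays labelled Card9-/-. The highest array of each day 12 group, WT replicate 5 and replicate 1 labelled Card9-/-, was among the 4 with pancreatic acinar signal, and the part of that signal in the Cxcr3 level was not tested.

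The Cxcr3 means ran from Card9-/- day 7 (-1.65 ± 0.26, SD, n = 4) and WT day 12 (-1.80 ± 0.97, n = 5) through Card9-/- day 12 (-1.81 ± 0.51, n = 5), WT day 7 (-2.35 ± 0.18, n = 4) and WT day 0 (-2.93 ± 0.02, n = 3) to Card9-/- day 0 (-3.09 ± 0.55, n = 3). The neighbours Card9-/- day 12 and WT day 7, and WT day 7 and WT day 0, lay further apart than either SD, and the others did not. Cxcr3 rose by 1.43 ± 0.42 (2.70-fold, adjusted p = 0.019) from day 0 to day 7 in arrays labelled Card9-/-, and the difference was 0.58 ± 0.42 (adjusted p = 0.531) in WT. Between day 7 and day 12 the differences were -0.16 ± 0.37 in arrays labelled Card9-/- and 0.56 ± 0.37 in WT (adjusted p = 0.867 and 0.539), so the fall called for Ifng, Cxcl9 and Cxcl10 was not called for the receptor. At day 12 against day 0 Cxcr3 was 1.28 ± 0.40 higher in arrays labelled Card9-/- (adjusted p = 0.0587) and 1.13 ± 0.40 in WT (adjusted p = 0.179). The day 7 call was lost without replicate 1 or 2 labelled Card9-/- at day 0 (1.20 and 1.37, adjusted p = 0.107 and 0.0707) or replicate 4 at day 7 (1.31, adjusted p = 0.0532), and with normexp background correction (0.85). The day 12 difference was called without replicate 3 labelled Card9-/- at day 0 (1.58, adjusted p = 0.0395) or without WT day 12 replicate 5 (1.28, adjusted p = 0.00533).

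The Cxcl11 probe, by contrast, was bright and nearly flat. Its group means were 8.74 ± 0.17 (SD, n = 3) in WT and 8.80 ± 0.14 (n = 3) in arrays labelled Card9-/- at day 0. The day 7 means were 8.86 ± 0.45 (SD, n = 5) for WT and 8.94 ± 0.47 (n = 4) for the label Card9-/-, and those of day 12 were 8.61 ± 0.06 (SD, n = 5) and 8.82 ± 0.31 (n = 5). No neighbouring means differed by more than the larger SD. Over all 11 comparisons the differences ran from -0.25 to 0.21 and none was called (adjusted p of 0.628 or more). The 4 arrays with the lowest 75th percentile were the 4 with the highest Cxcl11 level, and after quantile normalization the levels spanned 0.56 in place of 1.20. Among these 4 were arrays with acinar signal labelled Card9-/-, namely day 7 replicates 2 and 3 (289.3 and 204.6) and day 12 replicate 1 (196.1). WT day 7 replicate 5 (214.7) was the other, and WT day 12 replicate 5, also with acinar signal, was at 465.4.

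**Figure D2:**
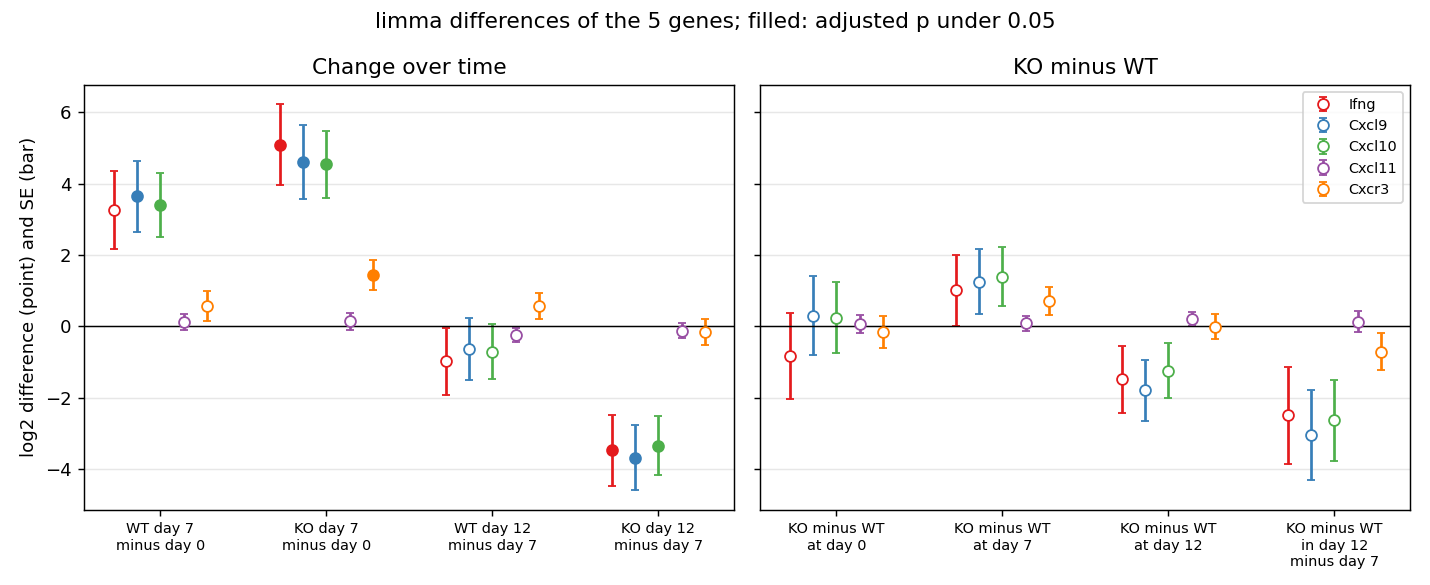
Log2 difference with its SE for each gene, on the left for the changes over time in WT and in arrays labelled Card9-/-, on the right for arrays labelled Card9-/- minus WT at each day and for the genotype contrast of the day 7 to day 12 change. Filled points had an adjusted p under 0.05. Filled points appear for the changes over time and for none of the differences between genotypes.

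The first comparison asked what DSS did. In WT, 2 of the 5 genes (Cxcl9 and Cxcl10) rose to day 7 and none fell, with a median difference of 3.26, while 4.35% of all genes were called (2.02% up) and the median of all genes was 0.03. With the label Card9-/-, 4 of the 5 rose, with a median of 4.54, while 19.7% of all genes were called (6.93% up) and the median of all genes was -0.08. These 2 comparisons share no arrays. Day 7 lay wholly above day 0 for 2 of the 5 in WT (Cxcl10 and Cxcr3), as for 4.71% of all genes, and for 4 of the 5 in arrays labelled Card9-/-, as for 9.03%. The WT calls depended on single arrays. Cxcl9 was not called without any of the WT day 0 arrays or any of the WT day 7 replicates 2, 3, 4 and 5 (adjusted p from 0.0513 to 0.219), and Cxcl10 not without any of the WT day 0 arrays or WT day 7 replicates 3 and 4 (adjusted p from 0.0618 to 0.184). With slide as a block the WT differences were 3.57 and 3.27 (adjusted p = 0.0658 and 0.0515).

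For the label Card9-/- the rise is set against day 0 arrays of which 2 were high in proximal colon Hox genes. Replicate 3, the remaining one, had the highest day 0 level of Cxcl9, Cxcl10 and Cxcr3 among the 6 day 0 arrays. Without the 3 arrays high in proximal colon Hox genes, where replicate 3 stands alone and is assumed to vary like the other groups, the rises were 4.65 for Ifng, 2.42 for Cxcl9, 2.70 for Cxcl10 and 0.83 for Cxcr3. None was then called (adjusted p = 0.0763, 0.278, 0.158 and 0.546). In WT, the same setting left out replicate 1 of day 7 and Ifng was called (4.14, adjusted p = 0.0173). Without the 4 arrays with acinar signal the rises in arrays labelled Card9-/- stayed called for the 4 genes, at 4.73, 4.77, 4.31 and 1.62.

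Recovery was followed by setting day 12 against day 7. In WT, none of the 5 genes was called, at an unadjusted p under 0.05 none either, and the median was -0.64, while 0.487% of all genes were called and 13.1% had an unadjusted p under 0.05. In arrays labelled Card9-/-, 3 of the 5 (Ifng, Cxcl9 and Cxcl10) fell and none rose, with a median of -3.34, while 7.7% of all genes were called (1.97% down) and the median of all genes was 0.02. Day 12 lay wholly below day 7 for Cxcl9 and Cxcl10 (2 of the 5), as for 3.58% of all genes. Without the 4 arrays with acinar signal, which leaves 2 arrays labelled Card9-/- at day 7, the differences were -3.78, -4.27 and -3.46, as large as with them. They were then not called (adjusted p = 0.122, 0.0907 and 0.123), and over all genes 203 were higher and 44 lower. Without replicate 2 labelled Card9-/- at day 7 the differences were -3.11, -3.50 and -3.11 and not called (adjusted p = 0.107, 0.0554 and 0.0566). At day 12 against day 0, none of the 5 was called in WT (4 at an unadjusted p under 0.05, median 2.28, 1.73% of all genes called and 13.3% at an unadjusted p under 0.05) or in arrays labelled Card9-/- (1, median 1.20, 6.96% and 19%). Cxcl9 was 3.01 ± 0.99 and Cxcl10 2.68 ± 0.89 above day 0 in WT (adjusted p = 0.141 and 0.147), and all WT day 12 arrays lay above all WT day 0 arrays for both and for Cxcr3 (3 of the 5, and 9.35% of all genes). For arrays labelled Card9-/- this held for Cxcr3 (1 of the 5, and 6.95% of all genes). There the Cxcl9 and Cxcl10 differences were 0.92 ± 0.99 and 1.20 ± 0.89 (adjusted p = 0.76 and 0.563).

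Each slide held arrays of both genotypes. Within slides 1, 2, 3 and 4, day 12 minus day 7 in arrays labelled Card9-/- was -5.23, -3.31, -0.44 and -3.68 for Ifng. It was -4.28, -3.00, -1.15 and -5.16 for Cxcl9 and -4.06, -3.05, -1.70 and -3.77 for Cxcl10. The sign was the same on every slide, and the smallest fall was on slide 3, which held replicate 1 labelled Card9-/- of day 12. In WT the same difference for Cxcl9 was -1.39, 2.88, -2.21 and -1.19, with slide 2, which held WT day 7 replicate 1, on the other side. For the rise to day 7 in arrays labelled Card9-/-, slides 2 and 4 gave 5.05 and 4.71 for Ifng, 3.77 and 6.62 for Cxcl9, 3.23 and 6.61 for Cxcl10 and 1.20 and 2.28 for Cxcr3.

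The comparison of genotypes asked whether the axis differed at a given day. None of the 5 genes was called at day 0, day 7 or day 12, where 0.00393%, 0.55% and 0.0707% of all genes were called. With 1 array left out the day 7 count over all genes ranged from 1 to 809 up and from 2 to 1464 down. At an unadjusted p under 0.05 there were 0, 0 and 1 of the 5, against 4.97%, 16.5% and 8.85% of all genes. At day 7 the differences, arrays labelled Card9-/- minus WT, were 1.01 ± 0.99 for Ifng, 1.25 ± 0.91 for Cxcl9, 1.39 ± 0.82 for Cxcl10 and 0.70 ± 0.39 for Cxcr3 (adjusted p = 0.676, 0.538, 0.42 and 0.379). At day 12 they were -1.48 ± 0.94, -1.79 ± 0.86 and -1.24 ± 0.77 for Ifng, Cxcl9 and Cxcl10 (adjusted p = 0.716, 0.564 and 0.71) and -0.01 ± 0.34 for Cxcr3 (adjusted p = 0.997). The Cxcl9 difference, 3.47-fold, was the 1 with an unadjusted p under 0.05. Within slides 1, 2, 3 and 4 it was -2.24, -1.61, 1.25 and -2.91, again with slide 3 on the other side.

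An interaction term asked whether the course over time differed by genotype. For the change from day 0 to day 7 none of the 5 genes was called (0.00393% of all genes called, 0 of the 5 and 11.6% of all genes at an unadjusted p under 0.05). For the change from day 7 to day 12 the genotypes differed by -2.49 ± 1.36 for Ifng, -3.05 ± 1.26 for Cxcl9, -2.63 ± 1.13 for Cxcl10 and -0.72 ± 0.52 for Cxcr3. None was called (adjusted p = 0.709, 0.581, 0.586 and 0.82), with 0.00785% of all genes called. Cxcl9 and Cxcl10 had an unadjusted p under 0.05 (0.0246 and 0.0298), as did 7.71% of all genes. A fall called in arrays labelled Card9-/- and not in WT is thus not shown to differ between them.

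Upstream of Ifng, genes that induce it or that its producing cells need rose at day 7 in arrays labelled Card9-/-. Of 13 tested inducers, 7 rose there and 1 fell, beside 6.93% of all genes up. No inducer was called between genotypes at day 7 (median 0.14) or in the interaction to day 7 (median 0.60). They were led by Stat4, the transcription factor of IL-12 signalling (2.34 ± 0.37, adjusted p = 0.000222), Il12rb1, a chain of the IL-12 receptor (1.93 ± 0.33, adjusted p = 0.00041), Ebi3, a subunit of IL-27 (2.09, adjusted p = 0.000755), and the cytokine Il18 (1.80, adjusted p = 0.000997). Il15, a cytokine that maintains NK cells, fell by 1.40. Tbx21, the master transcription factor of type 1 T cells, rose by 1.09 ± 0.36 (adjusted p = 0.0383). In WT 1 of the 13 rose, Il12rb1 (1.14 ± 0.32, adjusted p = 0.0439). None of the 13 was called between day 7 and day 12 in either genotype. Their median in arrays labelled Card9-/-, where the fall of Ifng was called, was -0.32, with 3 of the 13 differences positive. With 1 array left out, 0 to 4 of the 13 fell there. In arrays labelled Card9-/- at day 7, 6 of the 13 rose and 1 fell without the 4 arrays with acinar signal, and 1 rose and none fell without the 3 arrays high in proximal colon Hox genes. Without replicate 1 of day 0 alone 4 rose.

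Of 9 genes of the receptor and its signalling, the receptor chains themselves were not called at day 7. Ifngr1 differed by 0.25 ± 0.18 in arrays labelled Card9-/- and by 0.05 ± 0.17 in WT (adjusted p = 0.385 and 0.919). Socs1, the feedback inhibitor that this pathway induces, rose by 1.62 ± 0.44 in WT (adjusted p = 0.0389), the 1 call of the 9, and by 1.76 in arrays labelled Card9-/-, where Irf8 (0.65) and Jak1 (0.49) made it 3. Without the 4 acinar arrays, or without replicate 1 of day 0, 1 of the 9 rose in arrays labelled Card9-/-, and without the 3 Hox arrays none. By day 12, 2 of the 9 fell against day 7 in arrays labelled Card9-/-, among them Socs1 (-1.51 ± 0.40, adjusted p = 0.026). None of the 9 was called in WT. With 1 array left out, 0 to 4 fell with the label Card9-/-. Without the 4 arrays with acinar signal the Socs1 difference was -1.35 ± 0.48 and not called (adjusted p = 0.159). Its call was also lost without replicate 2 of day 7 with that label (-1.12, adjusted p = 0.106). The same held without replicate 2, 4 or 5 of day 12 with that label (adjusted p from 0.0521 to 0.0629).

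Downstream, 25 other targets of interferon gamma were listed, among them guanylate-binding proteins and other GTPases that attack microbes within cells, immunoproteasome subunits and enzymes. At day 7, 10 of the 25 rose in WT (median 1.48) and none fell. Among them were Ido1, which starts tryptophan breakdown (5.24 ± 0.80, 37.8-fold, adjusted p = 0.000709), Nos2, which makes nitric oxide (3.60 ± 0.60, 12.1-fold, adjusted p = 0.00181), the GTPase Ifi47 (2.08, adjusted p = 0.00791) and the immunoproteasome subunit Psmb8 (1.84, adjusted p = 0.00917). Of the same 25, 16 rose in arrays labelled Card9-/- (median 1.82) and none fell, led by Nos2 (4.41 ± 0.63, adjusted p = 8.07e-05), the serpin Serpina3g (4.46 ± 0.65, adjusted p = 9.64e-05), the guanylate-binding protein Gbp4 (3.71, adjusted p = 0.000373) and the ubiquitin-like Ubd (4.02, adjusted p = 0.000745). The medians of all genes were 0.03 and -0.08. The WT count was 2 without WT day 0 replicate 2 and 19 without the 3 arrays high in proximal colon Hox genes. The count in arrays labelled Card9-/- was 9 up without replicate 1 of day 0, 11 up without the 4 arrays with acinar signal and 4 up with 1 down without those 3 arrays.

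During recovery 18 of the 25 targets fell against day 7 in arrays labelled Card9-/- (median -1.59), and the difference was negative for all 25. Ifi47 fell by 2.12 ± 0.39 (adjusted p = 0.00387), Cd274, the checkpoint ligand PD-L1, by 2.04 (adjusted p = 0.00443), Gbp4 by 2.63 (adjusted p = 0.00806) and Ubd by 2.99 ± 0.65 (adjusted p = 0.00963). In WT 0 of the 25 were called (median -0.25). The count in arrays labelled Card9-/- was 5 without replicate 2 of day 7 and 1 without the 4 arrays with acinar signal, with a median of -1.68. At day 12, arrays labelled Card9-/- minus WT gave a negative difference for 23 of the 25 (median -0.96), with none called. Ifi47, with the smallest p, was at -1.83 ± 0.37 (adjusted p = 0.0652).

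Genes that respond mainly to type I interferon were measured beside these. Of 10, 1 rose in WT at day 7, Ifit2 (2.70 ± 0.61, adjusted p = 0.0136), and 5 in arrays labelled Card9-/-, among them Ifit2 (3.01), Ifit3 (1.05), Usp18 (1.20) and Oas2 (1.20). Recovery brought a fall of 8 of the 10 in arrays labelled Card9-/-, among them Ifit3 (-1.56 ± 0.26, adjusted p = 0.00208) and Ifit1 (-1.47 ± 0.25, adjusted p = 0.0021). None was called in WT, where all 10 differences were positive (median 0.55). At day 12 Ifit1, which binds viral RNA, was 3.52-fold lower in arrays labelled Card9-/- than in WT (-1.81 ± 0.23, adjusted p = 0.00186), and the interaction for its change from day 7 was called (-2.26 ± 0.34, adjusted p = 0.0202). The day 12 difference was called without any single array and without the 4 arrays with acinar signal (-1.95, adjusted p = 0.00834). The interaction was not called without those 4 (-2.49, adjusted p = 0.26), the 3 arrays high in proximal colon Hox genes (-2.25, adjusted p = 0.139), WT day 7 replicate 1 or 2, WT day 12 replicate 3, or, among arrays labelled Card9-/-, day 7 replicate 1, 2 or 4 or day 12 replicate 2 or 3 (adjusted p from 0.0557 to 0.0855). With normexp background correction, and with quantile normalization, 0 genes were called for this interaction, so the Ifit1 call was lost there too. The other 9 genes had negative differences at day 12 too and were not called. Without the 4 arrays with acinar signal 1 of the 10 rose at day 7 and 2 fell to day 12 in arrays labelled Card9-/-. Without the 3 Hox arrays none rose and 9 fell, and without replicate 1 labelled Card9-/- at day 0 alone 1 rose. Of the interferon genes, Ifnb1 and Ifna4 were well above background on no array, Ifna2 on 13 of the 25 and Ifnl3 on all 25.

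**Figure D3:**
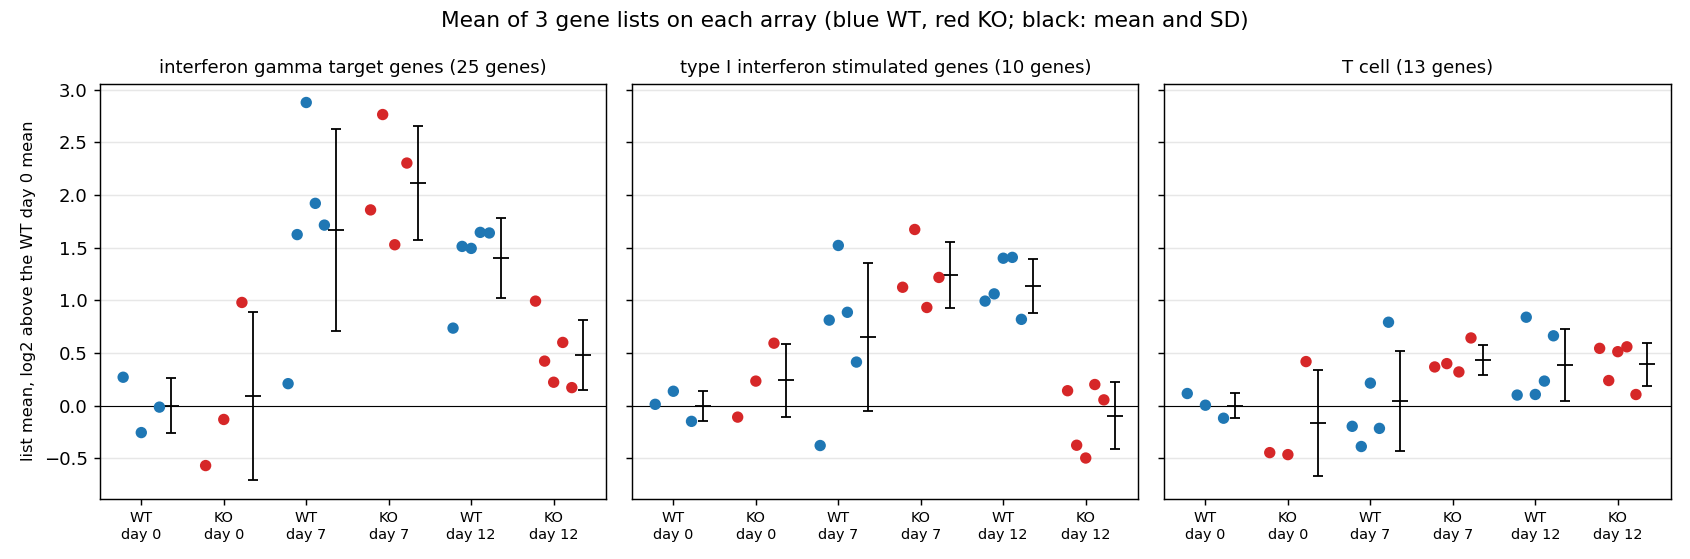
Mean log2 level per array, relative to the WT day 0 mean, of 25 interferon gamma targets, 10 genes of type I interferon and 13 T cell genes, by genotype label and day. Each point is 1 array, black bars are the group mean and SD, and KO stands for arrays labelled Card9-/-. The type I interferon means of arrays labelled Card9-/- at day 12 (-0.50 to 0.20) lie below those of WT at day 12 (0.82 to 1.41), while the interferon gamma target means of these groups (0.17 to 0.99 and 0.74 to 1.64) overlap.

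Other genes of the axis include a further CXCR3 ligand (Pf4), an enzyme that trims CXCL10 (Dpp4) and the T cell chemokine Ccl5. Of 6 listed, 3 rose in WT at day 7, among them Pf4 (1.27) and the chemokine scavenger Ackr1 (1.42). Both also rose in arrays labelled Card9-/- (Pf4 by 2.49 and Ackr1 by 2.68), and Dpp4 fell by 0.91 ± 0.16 (adjusted p = 0.000554). Ccl5 rose too, by 1.36. Without the 4 acinar arrays or the 3 Hox arrays 1 of the 6 rose in WT, and 3 rose and 1 fell in arrays labelled Card9-/-. Neither genotype had a call among the 6 from day 7 to day 12, with Ccl5 at -1.24 in arrays labelled Card9-/- (adjusted p = 0.052).

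Markers of the cells that make Ifng or carry Cxcr3 were counted next. Of 13 T cell genes none rose in WT at day 7, 1 fell (Trat1, -2.89 ± 0.80, adjusted p = 0.0455) and 4 rose in arrays labelled Card9-/-, among them Zap70 (1.26), Cd6 (2.13) and Cd5 (2.15). The 4 became 2 without replicate 1 of day 0 and none without the 3 Hox arrays, and stayed 4 without the acinar arrays, where the WT fall was not called. In WT at day 7, 8 of the 13 differences were positive (median 0.24), and 0 to 1 gene fell with 1 array left out. None of the 13 was called from day 7 to day 12 in arrays labelled Card9-/-. Of 8 NK and cytotoxic genes, Nkg7 fell by 1.57 ± 0.38 in WT at day 7 (adjusted p = 0.0211) and none rose. Nkg7 ran against its list there, as 7 of the 8 differences were positive (median 0.80). With 1 array left out, 0 to 1 of the 8 fell and 0 to 2 rose. In arrays labelled Card9-/-, the granzyme genes Gzmb (2.80) and Gzma (1.94) rose at day 7, and Xcl1 fell by 1.10 from day 7 to day 12. Without the acinar arrays 1 gene of this list rose at day 7 with that label and none fell to day 12, and without the Hox arrays none rose. The NK receptor gene Klrb1c was well above background on no array. Of 11 monocyte and macrophage genes, cells that make the chemokines, 3 rose at day 7 in WT and 10 in arrays labelled Card9-/-, and 1 fell to day 12 in the latter. The WT count was 0 without WT day 0 replicate 1. With the label Card9-/-, 9 rose without the acinar arrays and 7 without the Hox arrays, and none fell to day 12 without the acinar arrays.

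Genes of other cells moved with the same group. In arrays labelled Card9-/- all 4 tested genes of red blood cells rose to day 7 and 3 fell to day 12, with list means 2.21 to 5.33 above the WT day 0 mean at day 7 and -1.25 to 3.54 at day 12. In WT the day 7 means were -0.48 to 1.21. Without the acinar arrays 4 rose and none fell, and without the Hox arrays none rose and 1 fell. With 1 array left out 1 to 4 fell. Of 11 B cell genes 4 rose at day 7 in arrays labelled Card9-/-, with means of 0.69 to 1.96, against -1.67 to 0.43 in WT at day 7 and -1.83 to 1.71 over the day 0 arrays. None of the 11 was called without replicate 1 labelled Card9-/- at day 0, without the acinar arrays or without the Hox arrays. The part of these cells in the differences of Ifng, its chemokines and Cxcr3 was not tested.

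Across all 25 arrays, group differences included, the genes whose pattern was most like each member were named by Pearson's r over 17332 genes, as a description. For Ifng they were Cxcl9 (r = 0.929), Cxcl10 (0.921), Bst2 (0.919), Socs1 (0.917) and Gbp4 (0.915). For Cxcl9 they were the GTPase gene Tgtp2 (0.972), Cxcl10 (0.966), Gbp2 (0.957), Gm4951 (0.955) and Iigp1 (0.949), and for Cxcl10 they were Cxcl9 (0.966), Tgtp2 (0.952), Gbp2 (0.940), Gbp4 (0.929) and Gbp3 (0.924). Cxcr3 had other neighbours, Rasgrp1 (0.836) and Zap70 (0.796), both of T cell receptor signalling, followed by Dnaaf3 (0.766), Khdc1c (0.760) and the T cell receptor segment Trav3n-3 (0.760). Its r was 0.559 with Ifng, 0.570 with Cxcl9 and 0.534 with Cxcl10. The Cxcl11 probe was most like Ttc38 (0.994), Elk1 (0.991), Ppm1k (0.991), Medag (0.990) and Ndor1 (0.989), and its r with the other 4 members was 0.066 to 0.206. The probes of Elk1 and Ndor1 share runs of 31 and 24 bases with it.

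With each group's mean removed, the spread between mice of 1 group was compared over the 10 pairs of members, with 2-sided permutation tests and Benjamini-Hochberg adjustment over the 10. Cxcl9 and Cxcl10 varied together (Pearson's r = 0.908, adjusted p = 0.00015, and Spearman's rho = 0.842, adjusted p = 0.0003, n = 25 arrays). So did Ifng and Cxcl9 (r = 0.837, adjusted p = 0.000267, rho = 0.797, adjusted p = 0.0003) and Ifng and Cxcl10 (r = 0.813, adjusted p = 0.00015, rho = 0.784, adjusted p = 0.0003). The unadjusted permutation p for r was 3e-05, 8e-05 and 2e-05. Without the 2 arrays farthest from the median these were 0.853, 0.694 and 0.658, and with slide means removed as well 0.917, 0.861 and 0.809. Cxcr3 was related to Ifng (r = 0.42, adjusted p = 0.0178, rho = 0.491, adjusted p = 0.0394) and Cxcl9 (r = 0.454, adjusted p = 0.0178, rho = 0.596, adjusted p = 0.00995) over 24 arrays. Unadjusted permutation p was 0.00889 and 0.00717, r was 0.492 and 0.501 without the 2 farthest arrays, and with normexp background correction neither r was past the threshold (0.364 and 0.32, adjusted p = 0.0768 and 0.161). The rho of Ifng and Cxcr3 was 0.463 with normexp (adjusted p = 0.0487) and 0.464 with slide means removed (adjusted p = 0.0681). Cxcl10 and Cxcr3 had r = 0.302 (adjusted p = 0.136), and the 4 pairs with Cxcl11 had r of 0.0624 to 0.188, none past the threshold. The permutations exchanged arrays within groups only, and WT day 7 replicates 1 and 3 lay at the ends of the chemokine values. Ifng was well above background on 1 of 3 WT day 0 arrays and on 4 of 5 WT arrays at day 7 and at day 12. With the label Card9-/- it was so on 0 of 3 at day 0 and 2 of 5 at day 12. Its dim values entered these correlations and the ranking by r over all arrays.

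**Figure D4:**
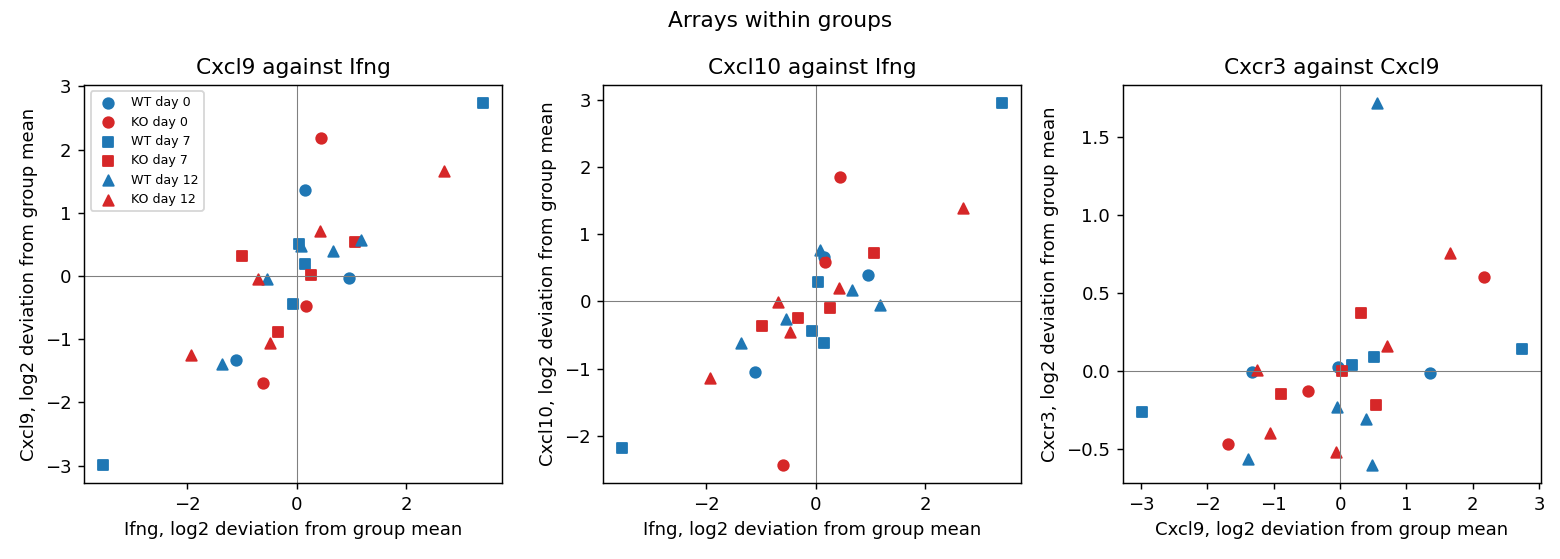
Deviation of each array from its group mean, on the log2 scale, for Cxcl9 against Ifng, Cxcl10 against Ifng and Cxcr3 against Cxcl9, with 1 point per array coloured by group. Points of Cxcl9 and Cxcl10 follow those of Ifng (r = 0.837 and 0.813), and Cxcr3 follows Cxcl9 less closely (r = 0.454).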

How the data were processed

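Agilent Feature Extraction 10.7.3.1 made the spot files, per the submitters' processing notes. The authors deposited spot intensity on a linear scale; the processed intensity is background-subtracted and not normalized between arrays, per the file headers. The authors also deposited a table on a log2 scale, which served as an alternative (normalization not given in the sources used here). The main value was log2 of the processed intensity minus that of the array's 75th percentile over spots that are not controls. Spots with outlier flags (161 to 280 per array) were left out, and spots of 1 probe averaged. Probes had to be well above background on 3 arrays or more of 25 to be kept (36283 of 55681), and a gene was represented by its probe with the highest mean. The 8 probes of the 5 genes include 2 each for Cxcl9, Cxcl10 and Cxcl11.

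The 6 groups entered 1 model in R 4.3.3, fitted by limma 3.58.1 with eBayes, with 11 contrasts and Benjamini-Hochberg adjustment over 25464 genes or unnamed probes, called under 0.05. It was tested on simulated data with independent noise of the same spread in every group. That setting does not cover arrays that stand apart or groups of unequal spread. Python 3.11.15, numpy 2.4.6, pandas 2.3.3, scipy 1.17.1, matplotlib 3.10.9 and data.table (version 1.17.8) were also used. Probes were named through accessions (27650), symbols (3406) or synonyms (321) of a GRCm38.p6 gene list, and 24304 kept the name in the file. Each array holds 1 mouse per the labels, and the number of arrays limits the precision. The design names 5 mice for the group labelled Card9-/- at day 7, of which 1 is not analysed here. Named genes were the 5 members and, of each gene list, up to 4 called genes with the smallest p. Tbx21, Ifngr1 and Il15 were named after their values were seen. Some genes of these lists are not reported here. The members, lists and settings were chosen with earlier results of these data known. Replicate numbers did not pair the samples: same-numbered arrays of different groups correlated at -0.444 to 0.682 (median 0.0355), with 15 of 54 over 0.1. Alternatives were normexp (offset 50), quantile normalization, the series table, the probe filter, the probe, slide, replicate number, the arrays in the fit, arrays left out (1, the 4 acinar, the 3 Hox) and a proximal colon covariate. Leaving out the 2 arrays highest in Cxcr3 at day 12, or WT day 12 replicate 4 with the Hox arrays, was added after the data were seen.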

Additional observations from a re-analysis of the deposited data

Results flagged for a closer look

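Among 20 sets of values of 1 member in 1 group of 4 or 5 arrays, 2 held an array far from the others, and chance would give about 1 in 20. Cxcr3 in WT day 12 replicate 5 was at -0.080, with the next array at -2.03, a gap of 0.841 of the group's range. This array has raised pancreatic acinar genes (list mean 6.69 above the WT day 0 mean), and the part of that in its Cxcr3 signal was not tested. The Cxcl11 probe in replicate 1 labelled Card9-/- of day 12 was at 9.38, with the next at 8.73, a gap of 0.855 of the range. That array had the lowest 75th percentile of the study (196.1).

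The change of Ifit1 from day 7 to day 12 differed between genotypes by the interaction term (-2.26). This call was lost without the 4 acinar arrays, without the 3 Hox arrays and without some single arrays. It was also lost with normexp and with quantile normalization, where 0 genes were called for this interaction.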

How the results depend on the processing

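Members called at day 7 against day 0 in WT were 2, and 1 with no filter on dim probes or the replicate block, 0 with slide as a block, with only the groups compared or without the 4 arrays with acinar signal, and 0 to 3 with 1 array left out. In arrays labelled Card9-/- they were 4, 0 without the 3 arrays high in proximal colon Hox genes or these and WT day 12 replicate 4, and 3 to 4 with 1 array left out. At day 12 against day 7 in the latter they were 3, 0 without the 4 arrays with acinar signal, 2 with normexp, quantile normalization, the series table, no filter, the replicate block or only the groups compared, each without Ifng, and 0 to 3 with 1 array left out. At day 12 against day 0 none was called, but in WT 1 with only the groups compared and 2 without the 3 Hox arrays, and in arrays labelled Card9-/- 1 with a filter of 13 arrays, without the 4 acinar arrays or without the 2 arrays highest in Cxcr3 at day 12, and 0 to 1 with 1 array left out. The replicate block changed no other count. Normexp took Pearson's r of Ifng and Cxcr3 to 0.364 and of Cxcl9 and Cxcr3 to 0.32 (both lost), of Cxcl11 and Cxcr3 to 0.348 (past the threshold), and of Cxcl9 and Cxcl10 with Cxcl11 to -0.00641 and -0.0108.

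Signs turned only where neither value was called, in 46 of 748 values under other settings and 36 of 1375 with 1 array left out. In the following, genotype differences are arrays labelled Card9-/- minus WT. With the proximal colon covariate, Ifng at day 0 was 0.37 (0.080 with normexp), Cxcl9 at day 12 against day 0 with the label Card9-/- was -0.41, and the interaction to day 7 was -0.71 for Cxcl9 and -0.34 for Cxcl10. Without the 3 Hox arrays these were -1.26 for Cxcl9 and -0.64 for Cxcl10 at day 12 against day 0, and -1.97 and -1.23 for the interaction. Signs that turned without the 3 Hox arrays also turned, at the same values, without WT day 12 replicate 4 too. Cxcr3 at day 0 was 0.019 with normexp and 0.45 without the 3 Hox arrays. In the series table it was -0.021 at day 12 against day 7 in WT, -0.022 between genotypes at day 7 and 0.010 for the interaction to day 12. Between genotypes at day 12 it was 0.057 with slide as a block, 0.23 without the 4 acinar arrays and 0.23 without the 2 highest arrays. For the Cxcl11 probe, day 7 against day 0 was -0.014 in WT by the other probe, and with the label Card9-/- -0.26 without the acinar and -0.021 without the Hox arrays. Day 12 against day 7 with that label was 0.15 without the acinar arrays and 0.036 by the other probe. Day 12 against day 0 was -0.079 with slide, -0.18 with the covariate, -0.12 without the acinar arrays, -0.14 without the Hox arrays and -0.12 without the 2 highest. Its genotype difference at day 0 was -0.16 by the other probe, and at day 7 -0.039 with quantile normalization, -0.32 without the acinar arrays and -0.14 by the other probe. The interaction to day 7 was -0.060 with quantile normalization, -0.0078 in the series table, -0.17 with slide, -0.22 with the covariate, -0.38 without the acinar and -0.16 without the Hox arrays, and that to day 12 was -0.010 without the 2 highest.

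With 1 array left out, day 12 against day 7 in WT ranged from -1.38 to 0.047 for Cxcl9 and -1.25 to 0.028 for Cxcl10. The genotype difference at day 0 ranged from -0.79 to 1.15 for Cxcl9, -0.68 to 1.46 for Cxcl10 and -0.46 to 0.081 for Cxcr3, whose day 12 difference ranged from -0.20 to 0.42. Cxcl10 ranged from -0.019 to 2.12 at day 12 against day 0 with the label Card9-/- and from -0.066 to 2.07 for the interaction to day 7. The Cxcl11 probe ranged from -0.074 to 0.23 in WT and -0.0065 to 0.30 with the label Card9-/- for day 7 against day 0, -0.28 to 0.027 and -0.12 to 0.10 with that label for day 12 against day 7 and day 0, -0.035 to 0.14 and -0.063 to 0.27 between genotypes at days 0 and 7, and -0.12 to 0.21 and -0.062 to 0.27 for the interactions. The cause of these shifts was not tested. Counts over all genes moved by over 1.5 times between genotypes at day 7 (140, normexp 41) and day 12 (18, normexp 10), at day 12 against day 7 (124, quantile 65) and day 0 (441, normexp 293) in WT, and between genotypes at day 0 (1, quantile 3). The count for the interaction to day 12 went from 2 to 0 with normexp and with quantile normalization, and that to day 7 from 1 to 0 with normexp. With 1 array left out, genes called between genotypes at day 7 (140, 37 of them up) were 1 to 809 up and 2 to 1464 down, and at day 7 against day 0 in WT (515 up) 158 to 746 up, so the shares over all genes printed beside the members move as much. Day 0 levels of Ifng near background limit its day 7 fold, and 3 arrays per day 0 group limit the comparisons with day 0.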
